A study of Saccharomyces cerevisiae with 12 samples.

Results

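The 37 genes described here carry sulfur from sulfate in the medium into cysteine, methionine and S-adenosylmethionine in the budding yeast Saccharomyces cerevisiae, together with the permeases and transcription regulators of that route. They were taken by name or locus from the genes on the array, with MET5 also listed as ECM17, and all 37 were found among the 6252 genes that have a probe. Messenger RNA was measured on 12 one-colour arrays, 3 from a strain labelled wild type and 3 from each of the strains labelled with a deletion of HSP31, HSP32 or HSP33, members of the DJ-1 superfamily of proteins. All cultures were in synthetic complete medium and were taken at the diauxic shift, when glucose runs out and cells turn to the ethanol they have made. No other treatment is labelled. The strain background, the auxotrophic markers, the marker used for each deletion and whether the medium held methionine are not given in the sources used here, nor is it said whether a deletion is represented by 1 clone.

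Yeast takes up sulfate, activates it with ATP, reduces it to sulfite and then to sulfide, and fixes the sulfide onto O-acetylhomoserine, a carbon chain made from aspartate. The homocysteine formed is methylated to methionine or passed through cystathionine to cysteine, and methionine is converted to S-adenosylmethionine, the methyl donor of the cell, whose spent form is returned to homocysteine. The activator Met4, which does not bind DNA by itself, is brought to these genes by Cbf1 or by Met31 and Met32 with the help of Met28, and when sulfur amino acids are plentiful the ubiquitin ligase SCF with the F-box protein Met30 inactivates Met4. Many genes of the route are known to be repressed when methionine is supplied.

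Several features of the arrays bear on all of these results. Median foreground intensity was 607 to 1153 per array over a median local background of 66 to 93, and arrays of 1 group correlated at r of 0.980 to 0.997. HSP31 had a log2 signal of 12.65 ± 0.14 in wild type (SD, n = 3) and was not well above background on any of the 3 arrays labelled hsp31 deletion. HSP32 and HSP33, which are near-identical and may be read by the same probes, stayed above background in their own deletions and give no check of those labels. The arrays labelled hsp33 deletion carried transcripts of alpha cells. All 4 alpha-cell genes listed passed the test there, with the pheromone gene MF(ALPHA)1 at least 31.9-fold above wild type, where it was not well above background. All 6 a-cell genes listed fell there, MFA1 and MFA2 by 2.02 and 2.45 on the log2 scale, and rose in the hsp31 and hsp32 deletions. The deletion of HSP33 and the mating type therefore cannot be told apart. The uracil synthesis gene URA3 was at least 219-fold above wild type in the hsp32 deletion and not well above background on the wild-type and hsp33 deletion arrays. In the hsp32 deletion it also stood 8.14 on the log2 scale above the hsp31 deletion. The deletion of HSP32 and the expression of URA3 therefore cannot be told apart, and the part of URA3 in the results was not tested. MET17, which some laboratory strains lack under its other name MET15, was bright on every array. On hsp32 deletion replicate 2 the negative controls set a higher background threshold, 284 against 35.4 to 53.6 elsewhere. All 37 genes were tested and 36 of them were above background on all 12 arrays, MHT1 being below that threshold on that single array. Scan offsets and repeated array positions divide the arrays into 2 inferred slides, each with all 4 groups.

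Against wild type, most transcripts of the route were higher in each of the 3 deletions, from the sulfate permease SUL1 to S-adenosylhomocysteine hydrolase, SAH1. In the hsp31 deletion 25 of the 37 genes rose and 2 fell, with CYS3 (3.46-fold), SUL1 (3.34-fold) and SAH1 (3.26-fold) in front. In the hsp32 deletion 28 rose and 2 fell, led by HOM3 (5.57-fold), SAH1 (5.42-fold) and CYS3 (5.38-fold). In the hsp33 deletion 25 rose and 2 fell, led by MET17 (4.23-fold), SAH1 (4.05-fold) and CYS3 (4.04-fold). A rise or a fall means an adjusted p under 0.05 in a limma fit of all 12 arrays, with Benjamini-Hochberg adjustment over the 5863 genes tested. In bulk RNA, fewer cells that make a transcript and less of it per cell cannot be told apart.

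The arrays differed widely over the whole genome, so these counts are read against all genes tested. The test called 56.1% of all genes in the hsp31 deletion, 70.0% in the hsp32 deletion and 61.4% in the hsp33 deletion. Calls in the upward direction made up 25.7%, 33.3% and 29.0% of all genes, against 25, 28 and 25 of the 37. Downward calls made up 30.4%, 36.7% and 32.4% of all genes, against 2 of the 37 in each deletion. At least 2-fold rises past the test numbered 11, 20 and 16 of the 37, where 4.55%, 11.5% and 7.45% of all genes rose that far. The 3 deletion arrays all lay above the 3 wild-type arrays for 27, 30 and 27 of the 37, and for 29.2%, 36.2% and 33.8% of all genes. They all lay below for 3, 2 and 4 of the 37, and for 34.8%, 39.7% and 38.2% of all genes.

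The median log2 difference over the 37 genes was 0.53 in the hsp31 deletion, 1.09 in the hsp32 deletion and 0.71 in the hsp33 deletion, where the median of all genes was -0.031, -0.036 and -0.032. The 3 comparisons share the wild-type arrays. Within slide 1 the medians over the 37 genes were 0.52, 1.00 and 0.80, and within slide 2 they were 0.52, 1.06 and 0.71. Slide 1 holds 1 array of the hsp32 and 1 of the hsp33 deletion, and slide 2 holds 1 array of wild type and 1 of the hsp31 deletion. Only the hsp31 deletion within slide 1 compares 2 arrays with 2. There 21 of the 37 genes were called higher, where 16.6% of all genes were. In the other fits within a slide the lone array is assumed to vary like the other groups. Scaling each array to its 75th percentile moved the median of all genes to 0.12, 0.17 and 0.15 and the share of calls that were upward from 45.8%, 47.6% and 47.2% to 61.1%, 61.3% and 61.8%. Under it the medians over the 37 genes were 0.58, 1.12 and 0.73. Differences below are on the log2 scale, ± the standard error of the fit, and levels are normalized log2 signals, whose size cannot be compared between genes because each gene has its own probe. Nothing in the labels states that replicate samples were grown separately, and the adjusted p values then reflect sample-to-sample spread that may be technical.

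**Figure D1:**
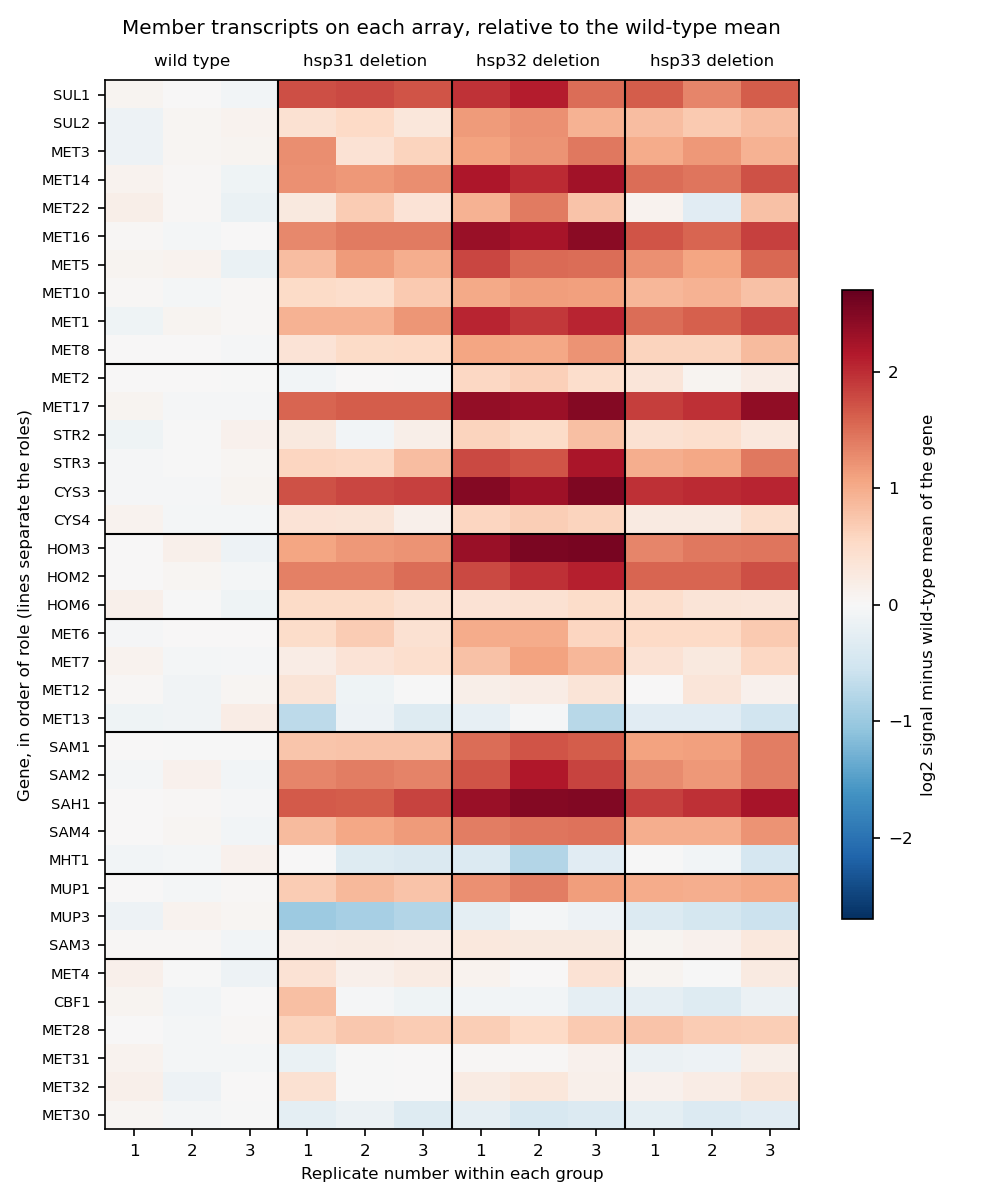
Log2 signal of the 37 genes on each of the 12 arrays minus the gene's mean over the 3 wild-type arrays, with genes in rows by role (black lines separate the roles) and arrays in columns by group; red is above and blue below the wild-type mean. The deepest red lies in the hsp32 deletion columns, and most regulator rows at the bottom stay pale.

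Sulfate uptake, activation and reduction rose nearly throughout: 9, 10 and 9 of its 10 genes passed the test upward in the hsp31, hsp32 and hsp33 deletions, and none downward. Among all genes tested, 25.7%, 33.3% and 29.0% passed upward and 30.4%, 36.7% and 32.4% downward. The median differences of the 10 were 0.87, 1.42 and 1.16. SUL1 (YBR294W), 1 of the 2 sulfate permeases, read 10.09, 10.04 and 9.94 in wild type, 11.76, 11.81 and 11.72 in the hsp31 deletion, 11.98, 12.14 and 11.53 in the hsp32 deletion and 11.67, 11.35 and 11.65 in the hsp33 deletion. Every deletion array lay more than 1 log2 unit above every wild-type array. Its differences were 1.74 ± 0.14, 1.86 ± 0.14 and 1.53 ± 0.14, with adjusted p of 2.08e-07, 3.04e-08 and 3.96e-07. The other sulfate permease gene, SUL2, moved less, by 0.42 ± 0.10, 1.12 ± 0.10 and 0.79 ± 0.10. The SUL2 call in the hsp31 deletion was lost, at 0.16, when arrays were scaled to their medians. MET3, ATP sulfurylase, which makes adenylylsulfate, rose by 0.75, 1.24 and 1.04.

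MET14 (YKL001C), the kinase of adenylylsulfate, read 10.88, 10.82 and 10.68 in wild type, 12.03, 11.97 and 12.04 in the hsp31 deletion, 12.98, 12.81 and 13.06 in the hsp32 deletion and 12.30, 12.24 and 12.52 in the hsp33 deletion. The 4 groups did not overlap, with wild type lowest and the hsp32 deletion highest. Relative to wild type its log2 differences were 1.22 ± 0.097, 2.16 ± 0.097 and 1.56 ± 0.097, with adjusted p of 2.47e-07, 4.15e-10 and 1.41e-08. MET16 (YPR167C), the reductase that yields sulfite, read 10.36, 10.29 and 10.35 in wild type, 11.64, 11.74 and 11.73 in the hsp31 deletion, 12.67, 12.57 and 12.77 in the hsp32 deletion and 12.03, 11.91 and 12.18 in the hsp33 deletion. It followed the same order without overlap, and in the hsp32 deletion it stood 5.05-fold above wild type (adjusted p 9.48e-11), compared with 2.58-fold in the hsp31 deletion (adjusted p 4.09e-08) and 3.26-fold in the hsp33 deletion (adjusted p 3.05e-09).

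MET5 and MET10 encode the 2 subunits of sulfite reductase, which turns sulfite into sulfide. Both rose in each deletion, MET5 by 0.99, 1.61 and 1.28 and MET10 by 0.57, 1.09 and 0.87. The MET10 call in the hsp31 deletion was lost, at 0.12, when arrays were scaled to their medians. Siroheme, the cofactor of sulfite reductase, is made by Met1 and Met8. MET1 (YKR069W) read 11.72, 11.91 and 11.87 in wild type, 12.78, 12.78 and 13.02 in the hsp31 deletion, 13.89, 13.74 and 13.89 in the hsp32 deletion and 13.34, 13.44 and 13.61 in the hsp33 deletion. No array of 1 group reached into another, and the differences from wild type were 1.03 ± 0.10, 2.01 ± 0.10 and 1.63 ± 0.10 (adjusted p 1.66e-06, 9.27e-10 and 1.31e-08). MET8 moved by 0.47, 1.11 and 0.68, all past the test.

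MET22, the phosphatase that clears the nucleotide left over from sulfate reduction, was the member of this step with the widest spread. Its signal (YOL064C) was 8.66, 8.55 and 8.33 in wild type, 8.78, 9.19 and 8.87 in the hsp31 deletion, 9.44, 9.92 and 9.29 in the hsp32 deletion and 8.60, 8.20 and 9.30 in the hsp33 deletion. All 3 hsp32 deletion arrays lay above wild type, whereas hsp33 deletion replicate 3 stood with the hsp32 deletion and replicate 2 of that group below wild type. It rose by 1.03 ± 0.23 in the hsp32 deletion (adjusted p 0.00114), and its differences of 0.44 ± 0.23 in the hsp31 deletion (adjusted p 0.124) and 0.19 ± 0.23 in the hsp33 deletion (adjusted p 0.504) did not pass.

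Sulfide fixation and transsulfuration, the exchange of sulfur between homocysteine and cysteine, contributed 4, 6 and 5 rises of 6 genes. The share of all genes that rose was 25.7%, 33.3% and 29.0%. MET17 (YLR303W), the sulfhydrylase that joins sulfide to O-acetylhomoserine, read 12.61, 12.51 and 12.52 in wild type, 14.12, 14.18 and 14.17 in the hsp31 deletion, 14.93, 14.85 and 15.03 in the hsp32 deletion and 14.41, 14.52 and 14.95 in the hsp33 deletion. It was bright in wild type too, and all 9 deletion arrays lay above it, by 1.61 ± 0.12, 2.39 ± 0.12 and 2.08 ± 0.12 (adjusted p 1.07e-07, 8.09e-10 and 6.03e-09). The hsp33 deletion arrays spread from 14.41 to 14.95, into the range of the hsp32 deletion. MET2, which makes O-acetylhomoserine, differed by -0.021 ± 0.084 in the hsp31 deletion and 0.20 ± 0.084 in the hsp33 deletion without passing (adjusted p 0.842 and 0.0562), and rose by 0.56 ± 0.084 in the hsp32 deletion. That MET2 call was lost, at 0.18, when arrays were scaled to their medians.

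CYS3 (YAL012W), cystathionine gamma-lyase, the last step to cysteine, read 11.48, 11.46 and 11.58 in wild type, 13.22, 13.32 and 13.35 in the hsp31 deletion, 13.98, 13.79 and 14.03 in the hsp32 deletion and 13.49, 13.51 and 13.56 in the hsp33 deletion. Wild type lay at the bottom, the hsp32 deletion at the top, and no 2 groups overlapped. The differences from wild type were 1.79 ± 0.084, 2.43 ± 0.084 and 2.01 ± 0.084 (adjusted p 2.38e-09, 4.27e-11 and 4.06e-10). CYS4, cystathionine beta-synthase, which acts just before CYS3, moved far less: 0.28, 0.62 and 0.32, the first and the last turning to -0.11 and -0.044 when arrays were scaled to their medians. The CYS4 call in the hsp31 deletion was also lost without wild type replicate 2 (adjusted p 0.0670) or 3 (0.0622) and without hsp31 deletion replicate 1 (0.0542) or 2 (0.0650).

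In the opposite direction, from cysteine back to homocysteine, work Str2 and Str3. STR3 (YGL184C), cystathionine beta-lyase, read 10.33, 10.36 and 10.42 in wild type, 10.94, 10.92 and 11.20 in the hsp31 deletion, 12.15, 12.06 and 12.57 in the hsp32 deletion and 11.34, 11.41 and 11.79 in the hsp33 deletion. The groups did not overlap, and replicate 3 was the highest array in each deletion. It rose by 0.65 ± 0.14, 1.89 ± 0.14 and 1.14 ± 0.14 (adjusted p 0.00164, 4.44e-08 and 1.12e-05). STR2, cystathionine gamma-synthase, was 0.12 ± 0.11 from wild type in the hsp31 deletion, which did not pass (adjusted p 0.378), and rose by 0.65 ± 0.11 and 0.39 ± 0.11 in the hsp32 and hsp33 deletions. The STR2 call in the hsp33 deletion was lost, at 0.11, when arrays were scaled to their medians.

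**Figure D2:**
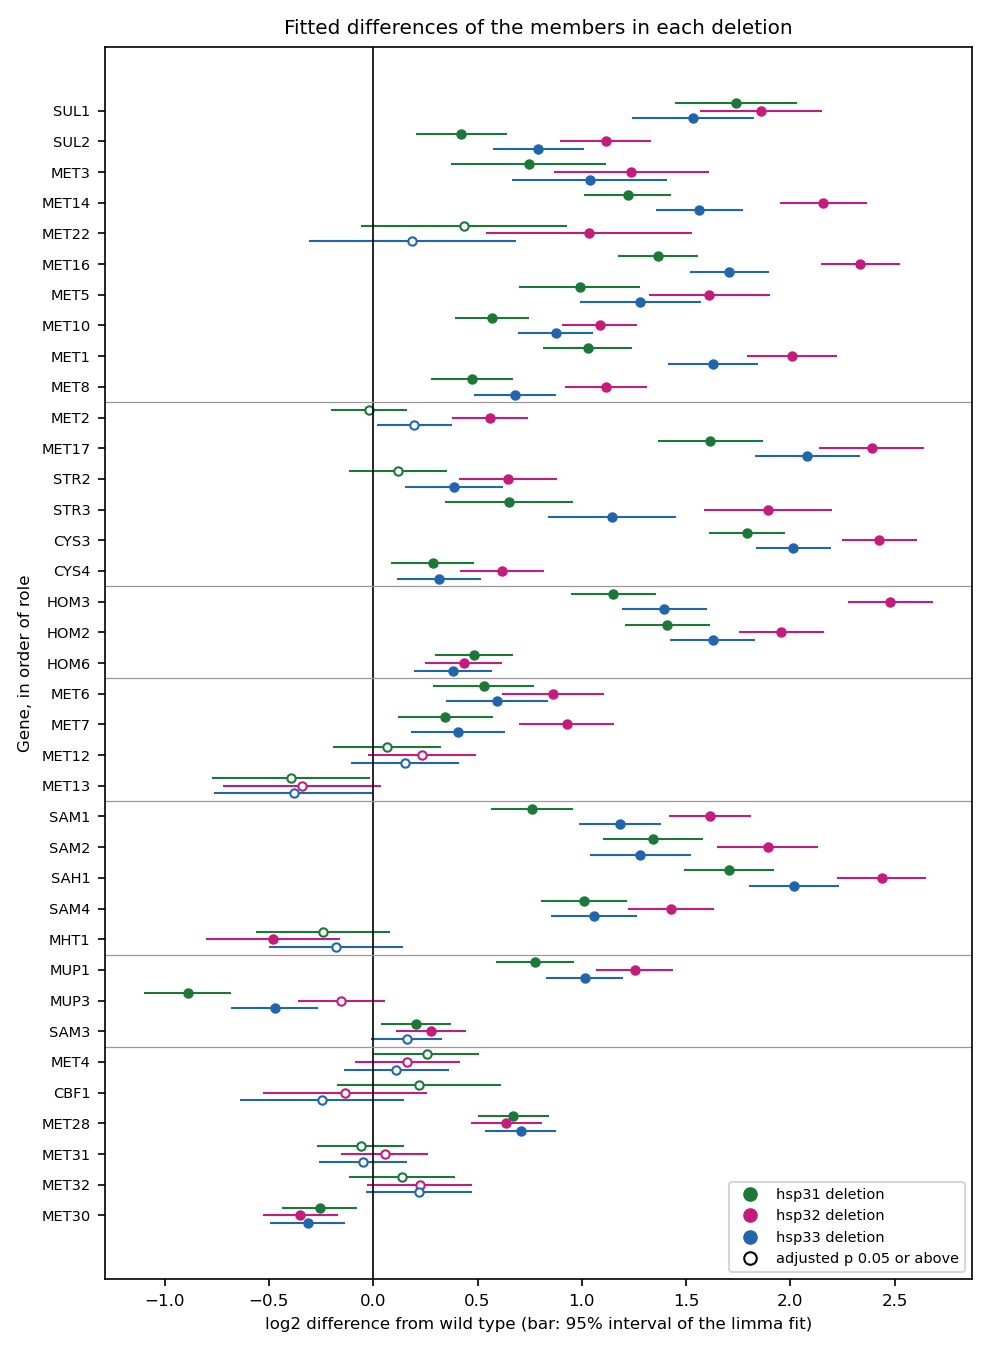
Fitted log2 difference from wild type for each gene (rows, in order of role) in the hsp31 (green), hsp32 (magenta) and hsp33 (blue) deletions, with bars for the 95% interval of the limma fit; filled points passed the test and open points did not. The magenta points lie farthest right for most enzymes, while MET30, MUP3, MHT1 and MET13 lie left of 0 in all deletions, MET13 with open points only.

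The carbon skeleton for methionine comes from aspartate through Hom3, Hom2 and Hom6. All 3 of their genes rose in each deletion, where 25.7%, 33.3% and 29.0% of all genes did. HOM3 (YER052C), aspartate kinase, read 10.98, 11.11 and 10.82 in wild type, 12.04, 12.15 and 12.18 in the hsp31 deletion, 13.31, 13.50 and 13.53 in the hsp32 deletion and 12.29, 12.40 and 12.41 in the hsp33 deletion. The hsp32 deletion stood well above every other array, and the hsp31 and hsp33 deletions lay close together above wild type without overlapping. HOM3 rose by 1.15 ± 0.095, 2.48 ± 0.095 and 1.40 ± 0.095 (adjusted p 3.28e-07, 1.03e-10 and 2.98e-08).

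HOM2 (YDR158W), aspartate semialdehyde dehydrogenase, read 12.78, 12.82 and 12.72 in wild type, 14.13, 14.14 and 14.29 in the hsp31 deletion, 14.56, 14.75 and 14.88 in the hsp32 deletion and 14.35, 14.34 and 14.51 in the hsp33 deletion. The 4 groups did not overlap here either, and the deletions stood 1.41 ± 0.095, 1.96 ± 0.095 and 1.63 ± 0.095 above wild type (adjusted p 6.21e-08, 7.99e-10 and 8.06e-09). HOM6, homoserine dehydrogenase, rose by 0.48, 0.43 and 0.38, and the value in the hsp33 deletion turned to -0.0072 when arrays were scaled to their medians. Under that scaling HOM6 stood at 0.077 and 0.023 in the hsp31 and hsp32 deletions, so it passed in no deletion. Homoserine also feeds threonine, and both genes of that branch rose: THR1, homoserine kinase, by 1.19, 2.17 and 1.71 and THR4, threonine synthase, by 1.03, 1.47 and 1.15.

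Methionine synthase and the enzymes that supply its folate gave a mixed picture, with 2 of 4 genes higher in each deletion and none lower. Of all genes, 25.7%, 33.3% and 29.0% rose and 30.4%, 36.7% and 32.4% fell. MET6, methionine synthase, rose by 0.53 ± 0.11, 0.86 ± 0.11 and 0.59 ± 0.11. Its call in the hsp31 deletion was lost, at 0.24, when arrays were scaled to their medians. MET7, which lengthens the glutamate tail of folates, rose by 0.35 ± 0.10, 0.93 ± 0.10 and 0.41 ± 0.10, and the hsp31 deletion call was lost without replicate 3 of that group (adjusted p 0.0547). The 2 genes of methylenetetrahydrofolate reductase did not pass in any deletion. MET12 stood at 0.066, 0.23 and 0.15 (adjusted p 0.663, 0.100 and 0.296). MET13 stood below wild type at -0.39, -0.34 and -0.38 (adjusted p 0.0722, 0.100 and 0.0748), with 95% intervals of -0.77 to -0.014, -0.72 to 0.039 and -0.76 to -0.0034.

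In the S-adenosylmethionine cycle 4 of 5 genes rose in each deletion, where 25.7%, 33.3% and 29.0% of all genes rose. SAM1 (YLR180W) and SAM2 encode the 2 S-adenosylmethionine synthetases, close paralogs whose probes may share signal. SAM1 read 10.48, 10.46 and 10.45 in wild type, 11.21, 11.23 and 11.24 in the hsp31 deletion, 11.97, 12.16 and 12.10 in the hsp32 deletion and 11.54, 11.56 and 11.84 in the hsp33 deletion. Arrays within wild type and within the hsp31 deletion lay close together, and the 4 groups did not overlap. SAM1 rose by 0.76 ± 0.091, 1.61 ± 0.091 and 1.19 ± 0.091, with adjusted p of 1.17e-05, 2.71e-09 and 9.91e-08. SAM2 rose by 1.34 ± 0.11, 1.89 ± 0.11 and 1.28 ± 0.11.

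SAH1 (YER043C), which splits the spent form of S-adenosylmethionine into homocysteine and adenosine, read 9.93, 9.94 and 9.88 in wild type, 11.57, 11.54 and 11.74 in the hsp31 deletion, 12.25, 12.40 and 12.41 in the hsp32 deletion and 11.77, 11.89 and 12.13 in the hsp33 deletion. Wild type lay far below the rest, and the hsp32 deletion lay above all other arrays. Its rises of 1.71 ± 0.10, 2.44 ± 0.10 and 2.02 ± 0.10 had adjusted p of 1.71e-08, 1.87e-10 and 2.12e-09. The homocysteine methyltransferases SAM4 and MHT1, which use S-adenosylmethionine and S-methylmethionine as methyl donors, went different ways. SAM4 rose by 1.01, 1.43 and 1.06.

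MHT1 (YLL062C) read 9.08, 9.11 and 9.27 in wild type, 9.15, 8.80 and 8.77 in the hsp31 deletion, 8.79, 8.37 and 8.85 in the hsp32 deletion and 9.13, 9.09 and 8.71 in the hsp33 deletion. Replicate 2 of the hsp32 deletion, the array where MHT1 was not above the background threshold, was the lowest. It fell by 0.48 ± 0.15 in the hsp32 deletion (adjusted p 0.0105), a call that was lost without that array (adjusted p 0.0579). In the hsp31 and hsp33 deletions it stood at -0.24 ± 0.15 (adjusted p 0.184) and -0.18 ± 0.15 (adjusted p 0.321), with deletion and wild-type arrays overlapping.

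The 3 permeases of methionine and S-adenosylmethionine differed from each other. MUP1, the high-affinity methionine permease, rose by 0.78 ± 0.086, 1.25 ± 0.086 and 1.01 ± 0.086. MUP3 (YHL036W), the low-affinity methionine permease, read 11.39, 11.63 and 11.58 in wild type, 10.55, 10.64 and 10.74 in the hsp31 deletion, 11.26, 11.49 and 11.39 in the hsp32 deletion and 11.17, 11.05 and 10.96 in the hsp33 deletion. The hsp31 deletion lay below all other arrays, the hsp33 deletion between it and wild type, and the hsp32 deletion overlapped wild type. MUP3 was 1.85-fold lower in the hsp31 deletion (log2 -0.89 ± 0.096, adjusted p 4.46e-06) and 1.39-fold lower in the hsp33 deletion (log2 -0.47 ± 0.096, adjusted p 7.62e-04), and stood at -0.15 ± 0.096 in the hsp32 deletion (adjusted p 0.171). SAM3, the S-adenosylmethionine permease, was 0.20 ± 0.079, 0.28 ± 0.079 and 0.16 ± 0.079 from wild type, the first 2 past the test but at -0.19 and -0.12 when arrays were scaled to their medians. The SAM3 call in the hsp31 deletion was lost on leaving out any 1 array of wild type or of that deletion, or hsp33 deletion replicate 2, with adjusted p from 0.0502 to 0.130.

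Among the 6 genes that control the route, 1 rose and 1 fell in each deletion, and the other 4 did not pass in any. That is 16.7% in each direction, where 25.7%, 33.3% and 29.0% of all genes rose and 30.4%, 36.7% and 32.4% fell. With scaling to the 75th percentile MET4 passed upward in the hsp31 and hsp32 deletions. CBF1 then rose in the hsp31, MET31 in the hsp32 and MET32 in the hsp32 and hsp33 deletions. Under that scaling 36.8%, 44% and 40.4% of all genes rose. MET32 also rose in the latter 2 with the authors' series values and with array weights. CBF1 fell in the hsp33 deletion with array weights. MET4 (YNL103W), the activator, read 10.53, 10.38 and 10.25 in wild type, 10.79, 10.54 and 10.61 in the hsp31 deletion, 10.49, 10.40 and 10.77 in the hsp32 deletion and 10.47, 10.39 and 10.64 in the hsp33 deletion. Wild type and the hsp32 and hsp33 deletions overlapped, and the hsp31 deletion arrays lay just above wild type. The differences were 0.26 ± 0.12, 0.16 ± 0.12 and 0.11 ± 0.12, with adjusted p of 0.0774, 0.227 and 0.429 and 95% intervals of 0.0044 to 0.51, -0.088 to 0.41 and -0.14 to 0.36.

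CBF1 (YJR060W), which binds DNA with Met4, read 8.78, 8.63 and 8.72 in wild type, 9.53, 8.68 and 8.58 in the hsp31 deletion, 8.63, 8.63 and 8.47 in the hsp32 deletion and 8.47, 8.36 and 8.56 in the hsp33 deletion. Replicate 1 of the hsp31 deletion stood well above the rest of its group, and the other arrays of all groups lay between 8.36 and 8.78, those of the hsp33 deletion below wild type. Its differences of 0.22 ± 0.18, -0.13 ± 0.18 and -0.25 ± 0.18 did not pass (adjusted p 0.328, 0.525 and 0.262).

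MET31 (YPL038W) and MET32 encode 2 related zinc finger proteins that also bring Met4 to DNA. MET31 read 9.84, 9.70 and 9.69 in wild type, 9.56, 9.74 and 9.75 in the hsp31 deletion, 9.78, 9.77 and 9.85 in the hsp32 deletion and 9.58, 9.61 and 9.89 in the hsp33 deletion. MET32 (YDR253C) read 10.28, 10.00 and 10.15 in wild type, 10.55, 10.14 and 10.16 in the hsp31 deletion, 10.36, 10.45 and 10.28 in the hsp32 deletion and 10.25, 10.34 and 10.49 in the hsp33 deletion. For both, the arrays of wild type overlapped those of the hsp31 and hsp33 deletions, and none of the 6 differences, from -0.061 to 0.22, passed. The adjusted p was 0.620, 0.633 and 0.689 for MET31 and 0.339, 0.105 and 0.121 for MET32.

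MET28 (YIR017C), the leucine zipper cofactor of the Met4 complex, read 12.26, 12.20 and 12.29 in wild type, 12.85, 12.98 and 12.93 in the hsp31 deletion, 12.92, 12.79 and 12.96 in the hsp32 deletion and 13.02, 12.94 and 12.92 in the hsp33 deletion. All 9 deletion arrays lay above the 3 of wild type and the deletions overlapped each other. It rose by 0.67 ± 0.079, 0.64 ± 0.079 and 0.71 ± 0.079 (adjusted p 9.80e-06, 6.17e-06 and 3.82e-06). MET30 (YIL046W), the F-box protein that marks Met4, read 13.01, 12.91 and 12.94 in wild type, 12.69, 12.80 and 12.60 in the hsp31 deletion, 12.71, 12.51 and 12.59 in the hsp32 deletion and 12.68, 12.59 and 12.65 in the hsp33 deletion. All deletion arrays lay below wild type, by small amounts: -0.26 ± 0.084, -0.35 ± 0.084 and -0.31 ± 0.084, with adjusted p of 0.0181, 0.00194 and 0.00483. The call in the hsp31 deletion was lost without wild type replicate 1 (adjusted p 0.0677) and without hsp31 deletion replicate 3 (adjusted p 0.0774), and within either slide alone MET30 did not pass in any deletion. Of the other subunits of that ligase and its ubiquitin-conjugating enzyme, 3, 4 and 4 of 4 fell, where 30.4%, 36.7% and 32.4% of all genes fell. The cullin gene CDC53 stood at -0.64, -0.97 and -0.71 and the conjugating enzyme gene CDC34 at -0.45, -0.97 and -0.67.

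**Figure D3:**
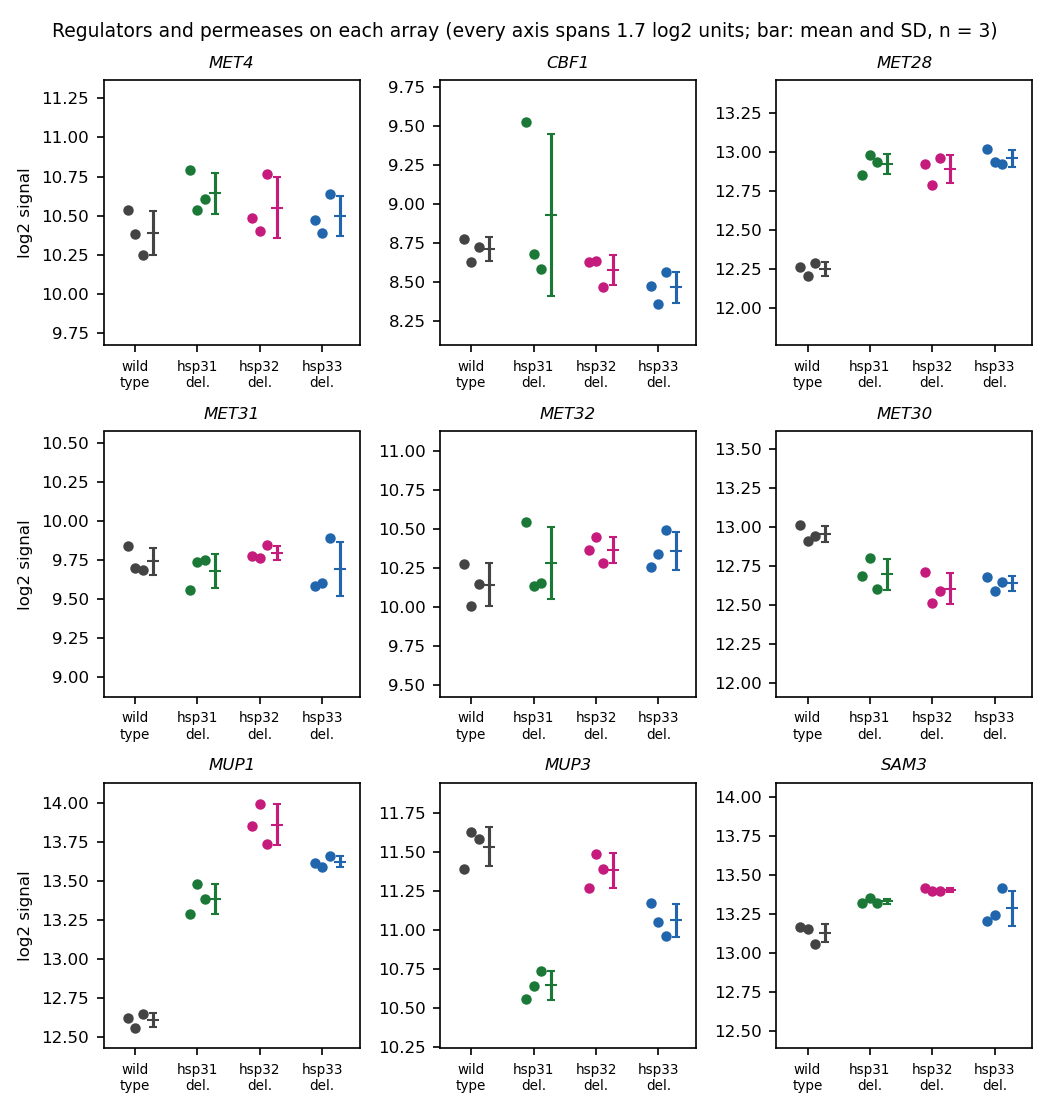
Log2 signal on each array for the 6 regulators and the 3 permeases, 1 panel per gene with the 4 groups along the axis; points are arrays, the bar beside them is the mean with its SD (n = 3), and every vertical axis spans the same range of 1.7 log2 units. MET28 and MUP1 lie above wild type in all deletions, MET30 lies below, and MUP3 is lowest in the hsp31 deletion.

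Genes next to the route were called higher and lower at shares near those of all genes tested. Of 37 genes listed for threonine, glutathione, methylthioadenosine salvage, polyamines, organic sulfur, methionine repair, the SCF partners and sulfite export, 12 rose and 13 fell in the hsp31 deletion, 15 rose and 13 fell in the hsp32 deletion, and 13 rose and 12 fell in the hsp33 deletion. Their median differences were -0.077, 0.21 and 0.066. The upward calls were 32.4%, 40.5% and 35.1% of the 37, where 25.7%, 33.3% and 29.0% of all genes rose, and the downward calls 35.1%, 35.1% and 32.4%, where 30.4%, 36.7% and 32.4% fell. Of the 11 genes of methylthioadenosine salvage and polyamines, 6, 7 and 5 rose and 1 fell. Among them MRI1, the isomerase of the salvage pathway, rose by 0.99, 1.48 and 1.12, the aminotransferase ARO8 by 0.94, 1.34 and 1.00 and SPE2, which decarboxylates S-adenosylmethionine, by 0.83, 0.89 and 0.72.

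Of the 10 genes for uptake and use of organic sulfur, 2, 3 and 4 rose and 4, 4 and 3 fell. These shares lie near those of all genes, of which 25.7%, 33.3% and 29.0% rose and 30.4%, 36.7% and 32.4% fell. IRC7, a beta-lyase that releases sulfur from cysteine conjugates, rose by 0.57, 2.05 and 0.88, and YCT1, the cysteine transporter gene, by 0.89, 0.28 and 0.76. AGP3, an amino acid permease, was lower at -0.94, -1.29 and -0.98, and JLP1, the sulfonate dioxygenase gene, at -0.61, -0.39 and -0.37. Methionine sulfoxide reductases, which repair oxidized methionine, fell in each deletion, MXR1 to -0.78, -1.02 and -0.94 and MXR2 to -0.68, -1.26 and -0.93. In glutathione metabolism ECM38, the gamma-glutamyltransferase that breaks glutathione down, fell to -0.92, -1.36 and -0.97, and 1, 2 and 1 of the 6 genes rose. SSU1, the sulfite pump, rose by 0.35, 0.95 and 0.53, and the gene of its activator, FZF1, was lower at -0.40, -0.28 and -0.39.

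A list of 12 genes, GCN4 and 11 genes of other amino acid pathways under its control, was chosen with earlier results of these data known. All 12 passed upward in each deletion, where 25.7%, 33.3% and 29.0% of all genes did, with median differences of 1.22, 1.51 and 1.25. The medians over the 31 enzymes and permeases of the sulfur route, without its 6 regulators, were 0.65, 1.24 and 1.01. ASN1, asparagine synthetase, rose by 1.91, 3.24 and 2.18, HIS7 of histidine synthesis by 1.88, 3.01 and 2.38 and ARG4 of arginine synthesis by 1.59, 2.11 and 1.72. GCN4, the general activator of amino acid synthesis, which is controlled mainly at translation, rose by 1.43, 1.45 and 1.23. Genes of amino acid synthesis outside that list, named from the listed strain markers, did not move alike. LEU2 of leucine synthesis rose in each deletion. HIS3 of histidine synthesis rose in the hsp31 and hsp32 deletions and fell by 1.33 in the hsp33 deletion. TRP1 of tryptophan synthesis stood at 0.23, -0.29 and 0.029 without passing (adjusted p 0.136, 0.0530 and 0.858). The part of Gcn4 in the rise of the sulfur genes was not tested.

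**Figure D4:**
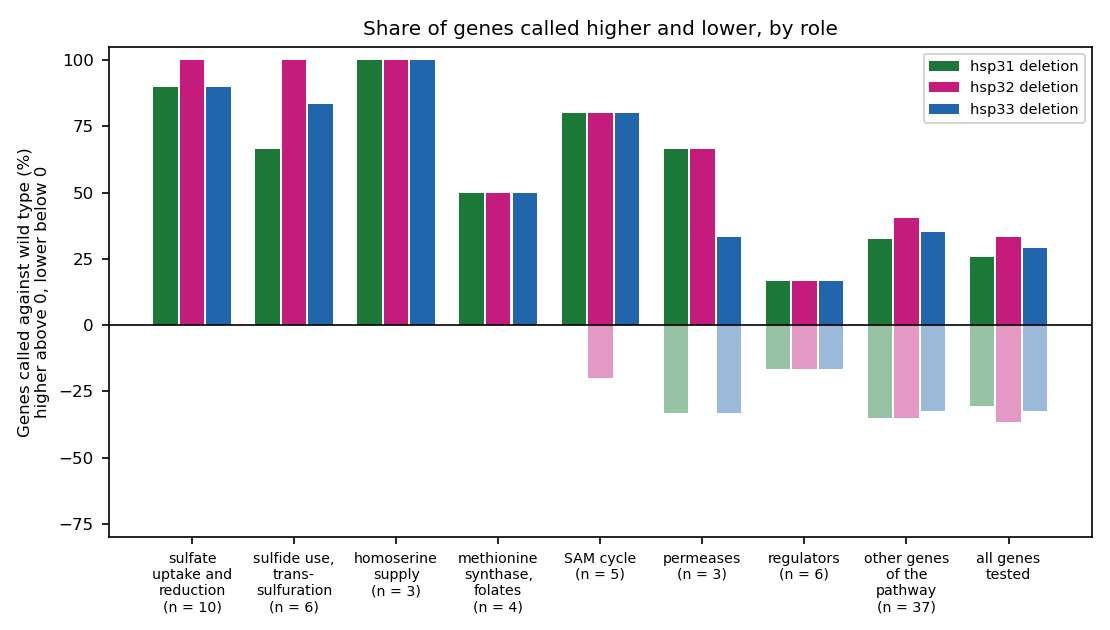
Percent of genes called higher (bars above 0) and lower (paler bars below 0) against wild type, by role of the 37 genes, for the 37 listed neighbouring genes and for all genes tested, in the hsp31 (green), hsp32 (magenta) and hsp33 (blue) deletions. Sulfate uptake and reduction and homoserine supply reach or approach 100%, while the regulators show 1 call in each direction.

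Among the deletions, the hsp32 deletion, whose arrays also differ in URA3, had the highest levels of the route. Against the hsp31 deletion 24 of the 37 genes were higher and none lower, where 19.8% of all genes were higher, 17.8% lower and 37.6% called in all. The median over the 37 was 0.53, with 0.46 within slide 1 and 0.53 within slide 2. Within each slide 1 of these 2 groups has a single array. The 3 widest called differences were HOM3 at 1.33 ± 0.095 (adjusted p 1.20e-06), STR3 at 1.24 ± 0.14 (adjusted p 2.82e-05) and MET1 at 0.98 ± 0.10 (adjusted p 1.31e-05). For all 3 genes every hsp32 deletion array lay above every hsp31 deletion array. SUL1 and HOM6 did not pass, at 0.12 ± 0.14 (adjusted p 0.507, 95% interval -0.17 to 0.41) and -0.051 ± 0.086 (adjusted p 0.671, 95% interval -0.24 to 0.13). The calls of MET3, MET6 and CYS4 depended on single arrays: without hsp31 deletion replicate 3 their adjusted p was 0.108, 0.106 and 0.0555. None of the 6 regulators passed.

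Between the hsp33 and hsp31 deletions, whose arrays also differ in mating type, 5 of the 37 genes were higher in the hsp33 deletion and none lower. Of all genes, 2.87% were higher, 1.96% lower and 4.83% called in all. The 5 were MET1 at 0.60 ± 0.10 (adjusted p 0.00384), MET17 at 0.47 ± 0.12 (0.0392), SAM1 at 0.42 ± 0.091 (0.0192), MUP3 at 0.42 ± 0.096 (0.0282) and MET16 at 0.34 ± 0.089 (0.0436). MET1 passed without each array in turn. MET16 and MET17 lost the call on leaving out most single arrays, to adjusted p of 0.138 and 0.110 without hsp33 deletion replicate 3. SAM1 lost it without hsp31 deletion replicate 2 (0.0699) or hsp33 deletion replicate 3 (0.0693). MUP3 lost it without hsp31 deletion replicate 1 (0.0905) or 2 (0.0846) or hsp33 deletion replicate 1 (0.0731) or 2 (0.0887). Without hsp31 deletion replicate 2 only 1 of the 37 genes passed, and without hsp32 deletion replicate 3, which enters through the shared variance, 9 did. Within each slide 1 of the 2 groups has a single array, so calls there are not read.

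Against the hsp32 deletion, the hsp33 deletion had 18 of the 37 genes lower and none higher, where 9.14% of all genes were lower, 9.57% higher and 18.7% called in all. HOM3 was lower by 1.08 ± 0.095 (adjusted p 5.51e-06), MET22 by 0.85 ± 0.23 (adjusted p 0.0206) and STR3 by 0.75 ± 0.14 (adjusted p 0.00332). The MET22 arrays of the 2 deletions overlapped, and its call was lost without hsp32 deletion replicate 2 (adjusted p 0.0872) or hsp33 deletion replicate 1 (0.0889) or 2 (0.101). The count fell to 10 without hsp33 deletion replicate 2 and to 11 without replicate 1. Within slide 1, which holds 1 array of each of these groups, calls are not read. Within slide 2 14 of the 37 passed, all of them lower. Of the 5863 genes tested, 462 were lower and 417 higher there, 15% in either direction. Of the 18 calls, 9 were lost on leaving out at least 1 array, as were 4 of 5 between the hsp33 and hsp31 deletions and 3 of 24 between the hsp32 and hsp31 deletions. The median over the 37 was -0.32, with -0.19 within slide 1 and -0.33 within slide 2. By group means, 23 of the 37 genes (62.2%) ran from wild type through the hsp31 and hsp33 deletions to the hsp32 deletion, an order that 21.7% of all genes tested also had. For 13 of the 23 no array overlapped between neighbouring groups, and for the other 10 the order is that of the means alone. Overlap was not counted over all genes, so the 13 are not read as particular to the route.

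**Figure D5:**
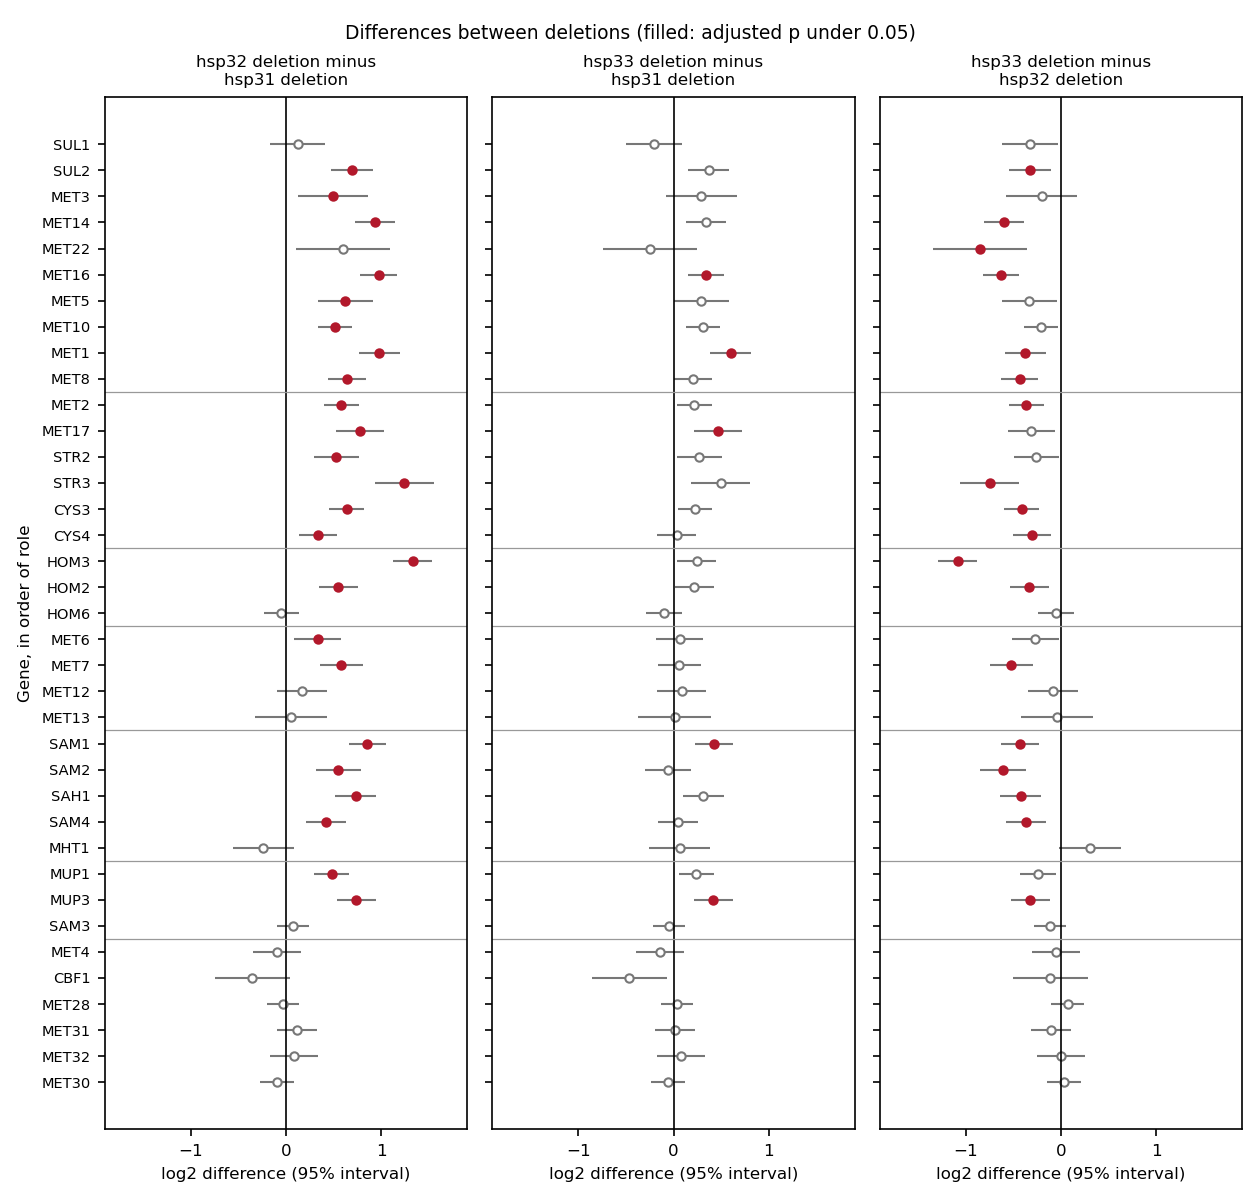
Fitted log2 difference of each gene (rows, in order of role) between pairs of deletions, with bars for the 95% interval of the limma fit; filled points passed the test. In the left panel 24 points are filled, all right of 0, in the middle panel 5, and in the right panel 18, all left of 0.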

How the data were processed

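Each of 12 samples gave Cy3-labelled RNA for 1 array, made per the labels with an Agilent kit for low input. The deposited scanner tables hold raw intensity for each spot (mean and median foreground, local background). They also hold the percent of pixels that were saturated, as deposited. The series values deposited by the authors are likewise an intensity, equal to the median foreground in every one of 15736 spots. Scanner software and any later scaling are not given in the sources used here. The authors' comparison tables were not used.

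Background was corrected by normexp (offset 50) of mean foreground against the median of the local background, fitted on all spots, followed by quantile normalization over the 12504 gene spots, log2 and averaging of each probe's 2 spots. Above background means a background-subtracted signal over the median of 77 negative controls plus 2 SD. Tests covered the 5863 genes that met this on every array of some group, 5003 of which met it on all 12. One limma fit (limma 3.58.1, R 4.3.3; 4 group means, 8 residual and 5.53 prior degrees of freedom, tested on simulated data) gave 6 comparisons, adjusted by Benjamini-Hochberg within each at 0.05. The simulated data held far fewer changed genes than were called against wild type, so they do not check the fit at that extent. No spot of the 37 genes was saturated (50% of pixels). Names were checked against a reference table that matched 5753 of 6252 probes and not the other 499. No annotation of the files' build was used, so no coordinates are given, and planned counts of promoter motifs and protein identities were not run because no sequence was used here. Slides were inferred and not labelled: slide 1 holds replicates 1 and 3 of wild type, 1 and 2 of the hsp31 deletion, 1 of the hsp32 deletion and 3 of the hsp33 deletion. The hsp33 deletion replicate 3 was grouped by its source name, its title being shorter than the others.

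The genes and lists were chosen with earlier results of these data known, so no list was tested. All 12 values are given for the 6 largest rises and 4 largest falls called in each comparison with wild type, the 3 largest differences called between deletions, the 6 regulators and MET17. Genes outside the 37 are named at most 4 to a list, by size; GCN4 and TRP1 were named beyond this after their values were seen. Alternatives were other scalings, no background correction, the series values, other filters, slide or replicate number as a block, each slide alone, 2-group fits, array weights, a variance trend and leaving out each array. Where a fit leaves 1 array in a group, that array is assumed to vary like the others.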

Additional observations from a re-analysis of the deposited data

How the results depend on the processing

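Over 25 alternatives for the 222 gene and comparison pairs, in which MHT1 could not be tested with the stricter filter on dim probes, 5125 of 5544 values kept their direction and their side of the threshold, 218 lost a call, 103 gained one, 5 called values changed sign, and 93 values that passed in neither fit changed sign. Of the lost calls, 53 came within slide 1 and 40 within slide 2, which hold fewer arrays, and 125 under the other alternatives. All 5 sign changes of called values came with scaling to each array's median, which moved the median of all genes to -0.080, -0.10 and -0.075 against wild type: CYS4 to -0.11 in the hsp31 and -0.044 in the hsp33 deletion, SAM3 to -0.19 in the hsp31 and -0.12 in the hsp32 deletion, and HOM6 to -0.0072 in the hsp33 deletion, none of them past the test. Calls held under all alternatives for 16 of 27, 24 of 30 and 20 of 27 genes called in the hsp31, hsp32 and hsp33 deletions against wild type, and for 8 of 24, 0 of 5 and 0 of 18 in the hsp32 against hsp31, hsp33 against hsp31 and hsp33 against hsp32 comparisons. These alternatives include the fits within a slide, where a group can have a single array and a lost call is not read. For hsp33 against hsp32, slide 1 holds 1 array of each group. MET14, MET16, MET8, STR3, HOM3, MET7, SAM1 and SAM2 lost the call of that comparison in the slide 1 fit alone. The causes were not tested. With scaling to the median the medians over the 37 genes were 0.37, 0.84 and 0.51 against wild type and -0.26 between the hsp33 and hsp32 deletions, with 4 genes lower in the hsp31 deletion and 2 higher in the hsp33 than the hsp31 deletion. With the authors' series values the medians were 1.19 and 0.76 in the hsp32 and hsp33 deletions against wild type. Within slide 1 the medians were 1.00 and 0.80 there, 0.46, 0.27 and -0.19 between the deletions in the order above, and 0.14 within slide 2 for hsp33 against hsp31. Array weights gave 0.47 for hsp32 against hsp31. Counts of calls within a slide are not read where a group has 1 array. Genes lower numbered 1 within slide 1 in the hsp31 deletion and 1 in the hsp32 deletion with the stricter filter. They numbered 4 in the hsp33 deletion with only the 2 groups fitted or with array weights (4). For hsp33 against hsp31 the 5 genes higher became 11 with the series values, 9 with the stricter filter, 8 with a variance trend, 11 with array weights and 1 with only the 2 groups fitted. In the same fits 3.8%, 4.06%, 3.38%, 5.1% and 0.802% of all genes were higher. For hsp33 against hsp32 array weights made 1 gene higher, where 14.1% of all genes were higher.

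Leaving out each array in turn gave 23 to 26 genes higher, 1 to 3 lower and a median of 0.47 to 0.55 in the hsp31 deletion against wild type, 28 to 30 higher, 2 lower throughout and 1.05 to 1.10 in the hsp32 deletion, and 25 to 27 higher, 2 to 4 lower and 0.69 to 0.73 in the hsp33 deletion. Between the deletions it gave 21 to 25 higher, 0 to 1 lower and 0.50 to 0.55 for hsp32 against hsp31, 1 to 9 higher, 0 lower and 0.14 to 0.22 for hsp33 against hsp31, and 0 higher, 10 to 19 lower and -0.36 to -0.27 for hsp33 against hsp32. The groups share replicate numbers, but with group means removed same-numbered arrays had a mean correlation of 0.035, -0.033 and -0.013 for numbers 1, 2 and 3, and only 6 of the 12 were closest to their own number in other groups, so no pairing was assumed. With the replicate number as a block, 24, 28 and 25 genes were higher in the hsp31, hsp32 and hsp33 deletions against wild type and 2 lower in each. Under the same block 23 and 6 were higher in the hsp32 and hsp33 deletions than in the hsp31 deletion, and 16 lower in the hsp33 than the hsp32 deletion. The number of arrays, and for MHT1 its signal near the threshold on 1 array, limit the precision.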

Other observations

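Other amino acid genes that often serve as strain markers did not move alike. LEU2, of leucine synthesis, rose by 1.09, 1.85 and 0.97 (log2, in deletions of HSP31, HSP32 and HSP33 in turn). HIS3, of histidine synthesis, rose by 0.96 ± 0.12 and 1.33 ± 0.12 in the hsp31 and hsp32 deletions and fell by 1.33 ± 0.12 in the hsp33 deletion (adjusted p 3.80e-07, limma), the group with alpha-cell transcripts. Its level was 8.84 ± 0.040 in wild type and 7.51 ± 0.043 in the hsp33 deletion (SD, n = 3), above background on all arrays. CAN1, the arginine permease gene, was lower in the hsp31 and hsp32 deletions at -0.57 ± 0.19 and -0.94 ± 0.19. ARO9, an aminotransferase gene of aromatic amino acid breakdown that also acts in methylthioadenosine salvage, rose by 0.83, 0.98 and 1.14. In glutathione breakdown DUG2 and DUG3, subunits of 1 complex, were called in different deletions: DUG2 rose by 0.37 ± 0.097 in the hsp32 deletion and DUG3 fell by 0.30 ± 0.10 in the hsp31 deletion.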
